A study of Mus musculus with 12 samples.

Results

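The genes described here are 10 of the eicosanoid and pro-resolving lipid mediator pathway, taken by symbol from the 49315 genes of the count table. They are Alox5, Alox5ap and Ltc4s of the leukotriene arm, Ptgs1, Ptgs2, Ptges and Hpgds of the prostanoid arm, and Anxa1, Fpr1 and Fpr2 of the annexin A1 and formyl peptide receptor axis. RNA was sequenced from the brains of 12 male CD45.1 Pep Boy mice, 8 to 12 weeks old at irradiation, collected at 14 d post-stroke. All mice had received head-shielded irradiation, then bone marrow (BM) from donors aged 8 to 14 weeks and, 8 to 10 weeks later, a 30 min transient occlusion of the middle cerebral artery. In the Tet2-KO group (6 mice), 10% of the transplanted cells were CD45.2 Tet2-/- and 90% were CD45.1 Tet2+/+. In the WT group (6 mice), the 10% of CD45.2 cells were Tet2+/+. Recipients therefore had Tet2 in all of their own brain cells in both groups, marrow under the head shield was spared from radiation, and no mouse without stroke or without transplant was analysed here. The labels' treatment entry names control cells for both groups, so groups were taken from the sample titles and the genotype entry. The question was whether brain transcripts of this pathway differed between recipients of Tet2-KO and WT BM cells.

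Eicosanoids are made from arachidonic acid that phospholipases cut from membranes. Cyclooxygenases turn it into a precursor from which terminal synthases make prostaglandins and thromboxane, while 5-lipoxygenase, which needs the membrane protein FLAP, starts the leukotrienes. Annexin A1 is a glucocorticoid-inducible protein that acts through the formyl peptide receptor FPR2 to limit leukocyte entry and to promote resolution of inflammation, and in brain these genes are known mainly from microglia, border macrophages, infiltrating leukocytes and, for Ptgs2, excitatory neurons.

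The 12 libraries held 12000261 to 21049763 counts assigned to genes, 12000261 to 15340787 in the WT group and 12625047 to 21049763 in the Tet2-KO group. Tet2 itself did not separate the groups in this tissue. Its level was 126 to 147 CPM in WT and 117 to 137 CPM in Tet2-KO mice (log2 fold change -0.01, SE 0.05, edgeR adjusted p = 0.934). CPM is a gene's share of its library's counts on a common scale, with library sizes scaled by TMM. WT replicate 2 and Tet2-KO replicates 4 and 5 stood at the upper edge of their groups for most of the genes below and for several cell type markers, and the counts of lower and higher genes of the pathway were recomputed without each of them. The study describes the sequenced tissue as whole brains in its results and as whole hemispheres in its discussion. In such bulk tissue, fewer cells of a type and less RNA per cell cannot be told apart.

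Of the 10 genes, 8 had enough counts for the edgeR test, and Fpr1 and Fpr2 did not. Of those 8, 4 (Anxa1, Ptges, Alox5ap and Hpgds) were lower in Tet2-KO mice at an unadjusted edgeR p below 0.05, against 12.2% of the 20290 genes tested. None of the 8 was higher, against 10.8% of all genes. None had an edgeR adjusted p below 0.05, a mark that 0.0246% of all genes reached (5 genes). By DESeq2, Anxa1, Ptges and Alox5ap were lower at an adjusted p below 0.05, against 3.55% of the 20148 genes given one. The median log2 fold change of the 8 was -0.49, against 0.01 for all genes tested, and all 8 estimates were below 0, although that of Ptgs1 was above 0 by limma-voom.

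Anxa1 showed the widest difference of the 8. Its gene lies on the minus strand of chr19:20373428-20390944 (mm10). In WT mice its level was 9.14 CPM at the lowest, 9.66 CPM at the median and 13.4 CPM at the highest. In Tet2-KO mice it was 2.04 CPM at the lowest, 3.49 CPM at the median and 8.08 CPM at the highest. The highest Tet2-KO value did not reach the lowest WT value, a separation in this direction found in 0.641% of all genes, although Tet2-KO replicate 5 came close to the WT range. Mean levels were 10.4 ± 1.57 CPM in WT and 4.04 ± 2.22 CPM in Tet2-KO mice (SD, n = 6 each). The fitted Tet2-KO level was 38.4% of the WT level (edgeR log2 fold change -1.38, SE 0.27, unadjusted p = 0.0002, adjusted p = 0.110). Anxa1 ranked 42nd of the 20290 genes by p. By DESeq2 the log2 fold change was -1.37, with an adjusted p of 0.0002. An exact two-sided permutation test of the 2 groups of 6 mice gave p = 0.00216, the smallest that these numbers of mice allow. In raw counts, the 6 Tet2-KO libraries held 33 to 103 Anxa1 reads and the 6 WT libraries 117 to 187.

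Fpr2 and Fpr1, the receptor genes that lie side by side at chr17:17887824-17893952 and chr17:17876471-17883940, were near the limit of detection and went apart. Fpr2 had 9, 15, 8, 12, 12 and 4 counts in WT replicates 1 to 6. In Tet2-KO replicates 1 to 6 it had 4, 1, 9, 3, 3 and 1 counts. The sums were 60 counts in WT and 21 counts in Tet2-KO mice, although the deepest libraries were those of Tet2-KO mice. On the CPM scale, 5 values of the Tet2-KO group lay under the WT minimum, with Tet2-KO replicate 3 at 0.605 CPM inside the WT range of 0.317 to 1.08 CPM. The difference in mean level was -0.507 CPM (exact two-sided permutation test, p = 0.00649). A fit that kept low-count genes gave Fpr2 a log2 fold change of -1.71 (SE 0.43, edgeR adjusted p = 0.0845), and DESeq2 gave it -1.73 with no adjusted p.

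Fpr1, the high-affinity receptor for bacterial formyl peptides, had 5 to 16 counts in each WT library and 7 to 22 in each Tet2-KO library. Its mean was 0.733 ± 0.298 CPM in WT and 0.744 ± 0.372 CPM in Tet2-KO mice (SD, n = 6 each), and the groups overlapped throughout. The exact permutation test gave p = 0.952, and counts this low could not have shown a small difference. The ratio of Fpr2 to Fpr1 within each mouse was tested as well, one of 7 ratios chosen after the values were seen. Adjustment over the 7 does not correct for that choice, so p-values of the ratios describe separation and give no independent support. On the scale of log2 of CPM + 0.1, its mean was 0.00 ± 0.76 in WT and -1.47 ± 0.57 in Tet2-KO mice, and the groups did not overlap (difference -1.47, exact permutation test, p = 0.00216, 0.00758 after adjustment over the 7 ratios). At these low counts the size rests on the pseudocount, and with 0.5 in place of 0.1 CPM the difference was -0.77 (exact permutation test, p = 0.00649). The other formyl peptide receptor genes Fpr3, Fpr-rs3, Fpr-rs4, Fpr-rs6 and Fpr-rs7 had 0 counts in all 12 libraries, which allows at most 3 counts over the whole set for each. Fpr3 shares 48 exon bases with Fpr2 on the same strand.

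**Figure D1:**
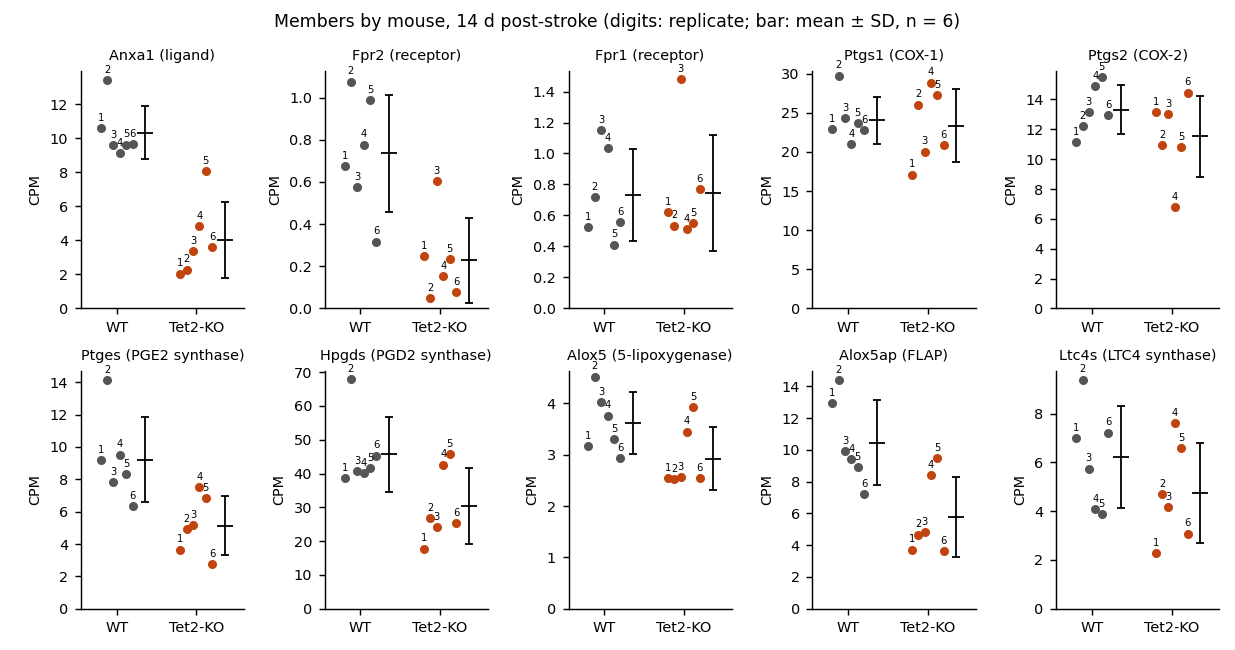
Level of each gene in CPM (vertical axes, from 0) in the 6 WT and 6 Tet2-KO mice; each point is 1 mouse, digits give the replicate, and bars give the mean ± SD. Anxa1 is the gene whose groups do not overlap, WT replicate 2 is the highest WT mouse in 8 of the 10 panels, and Tet2-KO replicates 4 and 5 lie inside the WT range for Alox5ap, Ptges and Hpgds.

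In the prostanoid arm, the terminal synthases Ptges and Hpgds were lower in Tet2-KO mice at an unadjusted p below 0.05, and the cyclooxygenases were not. Ptges encodes the inducible synthase of prostaglandin E2, and lies on the minus strand of chr2:30889471-30929863. It ranged from 6.35 to 14.1 CPM in WT mice, with a median of 8.75 CPM. In Tet2-KO mice it ranged from 2.77 to 7.51 CPM, with a median of 5.04 CPM. In 4 of 6 Tet2-KO mice it lay under the WT minimum, and replicates 4 and 5 were inside the WT range. Means were 9.22 ± 2.65 CPM and 5.14 ± 1.81 CPM (SD, n = 6 each), a log2 fold change of -0.84 (SE 0.23, unadjusted p = 0.0033, edgeR adjusted p = 0.120, DESeq2 adjusted p = 0.0179).

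Hpgds, the hematopoietic synthase of prostaglandin D2 at chr6:65117293-65144908, had the highest CPM of the 10 genes. WT mice had 38.7 CPM at the lowest, 41.1 CPM at the median and 67.9 CPM at the highest, and Tet2-KO mice had 17.8, 26.1 and 45.7 CPM. Again 4 Tet2-KO mice lay under the WT minimum, and replicates 4 and 5 lay among the WT mice. Mean levels were 45.7 ± 11.1 CPM and 30.4 ± 11.1 CPM (SD, n = 6 each), with a log2 fold change of -0.59 (SE 0.24, edgeR adjusted p = 0.178, DESeq2 adjusted p = 0.0723). The unadjusted p was 0.031, and it stayed below 0.05 in 7 of 12 fits that each left out 1 library.

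Ptgs1, the constitutive cyclooxygenase at chr2:36230426-36252272, had 24.1 ± 3.00 CPM in WT and 23.4 ± 4.67 CPM in Tet2-KO mice (SD, n = 6 each). The groups overlapped, at 21 to 29.8 CPM and 17.1 to 28.9 CPM, and the 95% interval of the fold of Tet2-KO over WT ran from 0.809 to 1.17 (edgeR adjusted p = 0.875). Its direction turned with the fit. The level of Hpgds relative to Ptgs1 within each mouse was lower in the Tet2-KO group. The mean log2 ratio was 0.90 ± 0.17 in WT and 0.32 ± 0.28 in Tet2-KO mice, with 5 of 6 Tet2-KO values under the WT minimum (difference -0.58, exact permutation test, p = 0.00433, 0.0101 after adjustment over the 7 ratios). This pair was chosen after the levels of both genes were seen, so its p-value gives no independent support.

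Ptgs2, the inducible cyclooxygenase at chr1:150100031-150108227, had 13.3 ± 1.64 CPM in WT and 11.5 ± 2.71 CPM in Tet2-KO mice (SD, n = 6 each), and the groups overlapped. The interval of its fold ran from 0.693 to 1.08 (edgeR adjusted p = 0.413), which spans both a lower and an equal level. Ptgs2 correlated negatively, to differing degrees, with each of the other tested genes from mouse to mouse. Over the 12 libraries, its log2 CPM deviations from the group means had Pearson correlations with theirs of -0.40 (Anxa1) to -0.80 (Ltc4s). All pairs without Ptgs2 had positive correlations, of 0.56 to 0.90, so the negative values are not separate observations. Tet2-KO replicate 4 had the lowest Ptgs2 of all 12 mice, at 6.79 CPM, and the highest Ptgs1, Ptges and Ltc4s of its group. Tet2-KO replicate 6 had the highest Ptgs2 of its group, at 14.5 CPM, and the lowest Ptges and Alox5ap. The difference in the Ptges to Ptgs2 ratio was -0.63 on the log2 scale (exact permutation test, p = 0.145), and that in the Ptgs2 to Ptgs1 ratio was -0.17 (exact permutation test, p = 0.584).

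In the leukotriene arm, Alox5ap was lower in Tet2-KO mice at an unadjusted p below 0.05, while Alox5 and Ltc4s gave no call. Alox5ap encodes FLAP, the protein that presents arachidonic acid to 5-lipoxygenase, and lies at chr5:149264767-149288153. It ranged from 7.22 to 14.4 CPM in WT mice, with a median of 9.65 CPM, and from 3.62 to 9.49 CPM in Tet2-KO mice, with a median of 4.75 CPM. The pattern was that of Hpgds and Ptges, with 4 Tet2-KO mice under the WT minimum and replicates 4 and 5 within the WT range. The log2 fold change was -0.85 (SE 0.26, unadjusted p = 0.0058, edgeR adjusted p = 0.124, DESeq2 adjusted p = 0.0243), and the means were 10.5 ± 2.69 CPM and 5.79 ± 2.53 CPM (SD, n = 6 each).

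Alox5, which encodes 5-lipoxygenase and lies at chr6:116410077-116461178, had few counts, with 37 to 63 counts in WT libraries and 33 to 67 in Tet2-KO libraries. Its means were 3.62 ± 0.595 CPM and 2.92 ± 0.610 CPM (SD, n = 6 each), and the interval of its fold ran from 0.642 to 1.01 (edgeR adjusted p = 0.230). Alox5ap was nonetheless lower relative to Alox5 within the Tet2-KO mice. The mean log2 ratio was 1.48 ± 0.29 in WT and 0.88 ± 0.33 in Tet2-KO mice (difference -0.60, exact permutation test, p = 0.00216, 0.00758 after adjustment over the 7 ratios). This pair too was chosen after its values were seen, and its p-value gives no independent support. The lowest WT ratio and the highest Tet2-KO ratio were both 1.27, so the groups met at their edges. Ltc4s, the synthase of leukotriene C4 at chr11:50236461-50238616, had 6.22 ± 2.10 CPM in WT and 4.74 ± 2.04 CPM in Tet2-KO mice (SD, n = 6 each), with groups that overlapped and a fold interval of 0.49 to 1.19 (edgeR adjusted p = 0.467). Ltc4s and Alox5ap encode membrane proteins of one family, and the difference in their log2 ratio was 0.48 (exact permutation test, p = 0.0563, 0.0985 after adjustment over the 7 ratios). Short antisense genes share exon bases with Alox5ap (189 bases) and Ltc4s (268 bases), and whether the counting used strand is not stated in the sources used here. Over the 12 libraries those antisense genes had 227 and 504 counts.

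**Figure D2:**
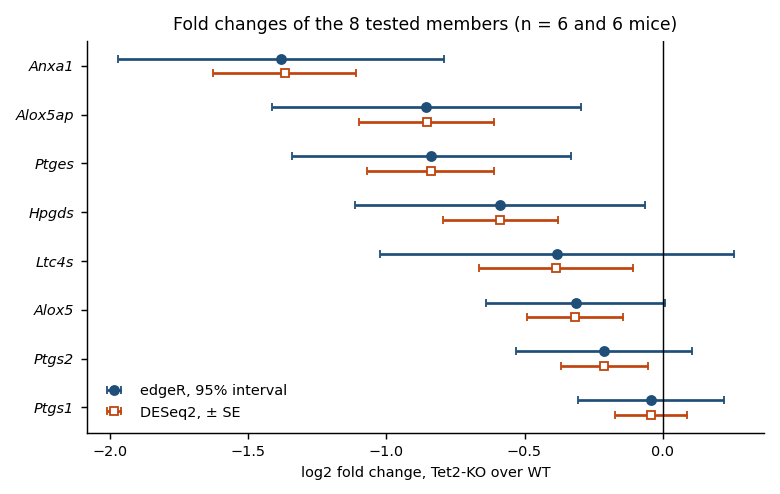
Log2 fold change of Tet2-KO over WT (horizontal axis) for the 8 genes with enough counts to test; filled circles are edgeR estimates with 95% intervals and open squares DESeq2 estimates with SE. The edgeR intervals of Anxa1, Alox5ap, Ptges and Hpgds lie below 0, and those of Ltc4s, Alox5, Ptgs2 and Ptgs1 include it.

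**Figure D3:**
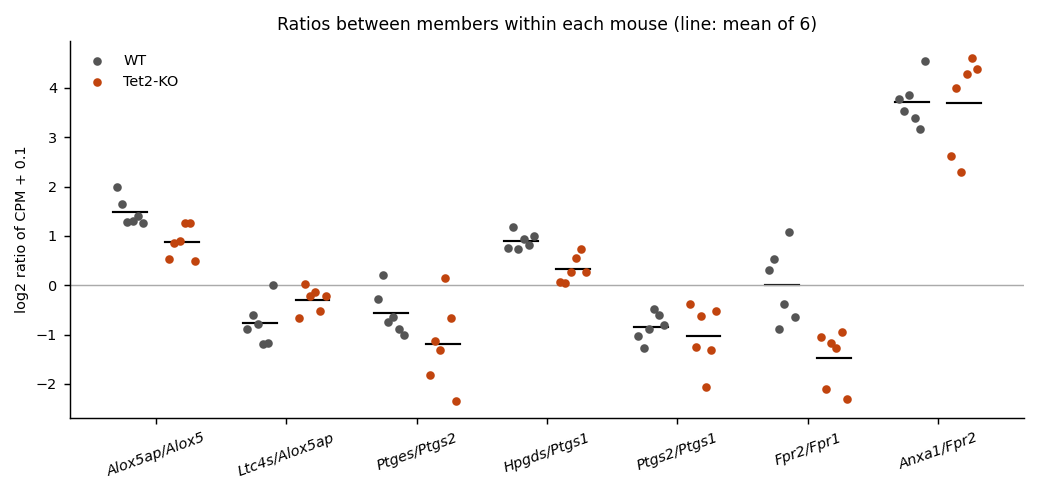
Log2 ratio of CPM + 0.1 between pairs of genes within each mouse (vertical axis), with 1 point per mouse and lines at the mean of 6 mice. The Fpr2/Fpr1 points of the Tet2-KO mice lie below all WT points, and the Alox5ap/Alox5 points meet the WT points at 1.27.

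Levels can be compared between genes only per transcript length, given here as CPM divided by the kilobases of merged exons (RPKM). In WT mice the mean order was Alox5ap (7.37 RPKM), Hpgds (7.11 RPKM), Ptgs1 (6.20 RPKM), Ltc4s (6.13 RPKM), Anxa1 (3.56 RPKM), Ptgs2 (2.90 RPKM), Ptges (2.35 RPKM), Alox5 (0.880 RPKM), Fpr2 (0.567 RPKM) and Fpr1 (0.554 RPKM). Of the neighbours in that order, only the ranges of Ptges and Alox5 did not overlap. In Tet2-KO mice the order was Ptgs1 (6.01 RPKM), Hpgds (4.73 RPKM), Ltc4s (4.68 RPKM), Alox5ap (4.08 RPKM), Ptgs2 (2.52 RPKM), Anxa1 (1.39 RPKM), Ptges (1.31 RPKM), Alox5 (0.712 RPKM), Fpr1 (0.562 RPKM) and Fpr2 (0.176 RPKM), and the ranges of every pair of neighbours overlapped. Anxa1 was above Ptgs2 in 4 of 6 WT mice and in 2 of 6 Tet2-KO mice.

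Promoter sequence is shown for a gene of the prostanoid arm that was lower and for the neighbouring receptor genes that went apart. The counts are per gene and do not tell at which start a transcript began. The Ptges window lies inside the annotated gene (chr2:30889471-30929863, minus strand), so its counts may include transcripts that start upstream of the window. RefSeq (GRCm38.p6) promoters matched 9 of the 10 genes. The windows below end at the start site or at the first annotated exon base, run 5′ to 3′ on the gene's strand, and have in capitals the letters of the searched motifs, either as spelled or, on the other strand, as their reverse complement. The windows are chr2:30903298-30903547 (minus strand) for Ptges, chr17:17887574-17887823 (plus strand) for Fpr2 and chr17:17883941-17884189 (minus strand) for Fpr1.
Ptges: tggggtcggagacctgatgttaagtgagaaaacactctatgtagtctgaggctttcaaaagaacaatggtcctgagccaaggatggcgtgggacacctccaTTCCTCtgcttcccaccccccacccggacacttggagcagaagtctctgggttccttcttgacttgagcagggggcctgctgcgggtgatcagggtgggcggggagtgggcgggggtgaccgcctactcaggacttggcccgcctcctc
Fpr2: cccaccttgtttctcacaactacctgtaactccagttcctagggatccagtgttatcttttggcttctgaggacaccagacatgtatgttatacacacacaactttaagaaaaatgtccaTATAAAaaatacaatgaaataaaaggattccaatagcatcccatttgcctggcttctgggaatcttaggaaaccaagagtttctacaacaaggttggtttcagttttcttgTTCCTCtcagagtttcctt
Fpr1: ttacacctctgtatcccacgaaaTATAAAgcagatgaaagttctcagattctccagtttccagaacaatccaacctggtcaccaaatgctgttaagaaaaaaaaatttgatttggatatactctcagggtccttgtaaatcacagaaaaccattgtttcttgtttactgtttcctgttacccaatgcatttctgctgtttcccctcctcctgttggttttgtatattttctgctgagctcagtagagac
Within the 250 bases before the start, GAGGAA, the core bound by the myeloid factor PU.1, was found on either strand in 7 of the 9 genes (Alox5, Ptgs1, Ptgs2, Ptges, Hpgds, Fpr2 and Anxa1) and in 23.3% of all 32851 promoters. The TATA box letters TATAAA were found in Fpr1, Fpr2 and Anxa1 and in 12.4% of all promoters. These matches ended 221 bases (Fpr1), 124 bases (Fpr2) and 26 bases (Anxa1) before the start, so only that of Anxa1 lay close to it. The C/EBP form TTNNGCAA was found in Ptgs2, Hpgds and Anxa1 and in 9.56% of all promoters. The NF-kB consensus was found in Ptgs2 and in 7.91% of all promoters, and TGACG, the core of the cAMP response element, was found in none of the 9 and in 17.8% of all. In these genes no match of one motif shared bases with a match of another. Genes that were lower and genes that gave no call both held GAGGAA, and a match of letters is not a binding site.

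Outside the 10 genes, 82 genes of the pathway, grouped by role, were in the table and 65 had enough counts to test. Of these, 17 were lower in Tet2-KO mice at an unadjusted p below 0.05 (26.2%, against 12.2% of all genes tested) and 5 were higher (7.69%, against 10.8%). None had an edgeR adjusted p below 0.05, and DESeq2 called 6 lower (9.23%, against 3.55% of all genes) and 0 higher after adjustment. Their median log2 fold change was -0.07, against 0.01 for all genes tested. The 6 were Pla2g2d, Ptger4, Ptgdr, Cysltr1, Dpep2 and Cyp4f18.

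The phospholipase and lipase list is not limited to enzymes that themselves release arachidonate. Of its 15 tested genes, 5 were lower and 2 higher. The lower ones were Pla2g2d (log2 fold change -1.58), a secreted phospholipase of dendritic cells and macrophages, Pla2g4c (-0.94), Pla2g4a (-0.66), the cytosolic phospholipase that releases arachidonate for both arms, Pla2g15 (-0.45) and Daglb (-0.21). The higher ones were Pla2g4e (0.32) and Abhd6 (0.14), a lipase that breaks down an endocannabinoid. Pla2g4a had 11.2 ± 2.95 CPM in WT and 7.10 ± 2.65 CPM in Tet2-KO mice (SD, n = 6 each, edgeR adjusted p = 0.137). Mgll and Faah, the most abundant of the list, had log2 fold changes of 0.04 and 0.20 and gave no call.

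Of 8 other prostanoid synthases, 2 were lower and none higher. Tbxas1, which encodes thromboxane synthase, had a log2 fold change of -0.84 (26.2 ± 8.84 CPM in WT and 14.7 ± 8.0 CPM in Tet2-KO mice, SD, n = 6 each), and Akr1b3 had -0.24. Ptgds, the synthase of prostaglandin D2 that the choroid plexus and leptomeninges express, had 685 ± 130 CPM in WT and 561 ± 118 CPM in Tet2-KO mice (SD, n = 6 each, log2 fold change -0.29, edgeR adjusted p = 0.269) and gave no call, and Ptges3 had a log2 fold change of -0.02. Of 7 genes of prostanoid breakdown and transport, Hpgd (-0.60), the dehydrogenase that inactivates prostaglandins, and the exporter gene Abcc4 (-0.17) were lower, while the most abundant, Slco3a1 and Ptgr2, had -0.07 and -0.03.

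Of 8 tested prostanoid receptors, 3 were lower and none higher. They were Ptgdr (log2 fold change -1.27), a receptor of prostaglandin D2, and Ptger2 (-0.68) and Ptger4 (-0.59), which are receptors of prostaglandin E2 that raise cAMP. Ptger4 had 11.7 ± 2.48 CPM in WT and 7.79 ± 2.25 CPM in Tet2-KO mice (SD, n = 6 each, DESeq2 adjusted p = 0.0423). Ptgfrn, the most abundant gene of the list and no receptor of a prostanoid itself, had a log2 fold change of -0.07.

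Of the other lipoxygenases, 4 were tested, and Aloxe3 was higher (log2 fold change 0.27) while Alox8 had 0.02. Alox15, which also makes pro-resolving lipids, had too few counts to test. Of 6 tested leukotriene synthases and peptidases, Dpep2 (-1.56), which cleaves leukotriene D4, and Cotl1 (-0.60), an actin-binding partner of 5-lipoxygenase, were lower, Mgst3 (0.20) was higher, and Lta4h, the hydrolase that makes leukotriene B4, had -0.08. Only 2 of 6 leukotriene receptors could be tested. Cysltr1, a receptor of cysteinyl leukotrienes, was lower, at 4.50 ± 1.25 CPM in WT and 2.07 ± 1.26 CPM in Tet2-KO mice (SD, n = 6 each, log2 fold change -1.15, DESeq2 adjusted p = 0.0123), and Gpr17, an orphan receptor of oligodendrocyte precursors, had -0.13.

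Among 6 tested genes of the pro-resolving receptor list, Cmklr1, a receptor of chemerin and resolvin E1, was lower (27.4 ± 7.75 CPM in WT and 15.1 ± 7.82 CPM in Tet2-KO mice, SD, n = 6 each, log2 fold change -0.87, edgeR adjusted p = 0.167), and Gpr37, the most abundant, had 0.01. Of 9 genes in the epoxygenase and epoxide hydrolase list, Cyp4f18 was lower (log2 fold change -1.41, DESeq2 adjusted p = 0.00135), Cyp4x1 was higher (0.24), and Ephx1 and Cyp2j9 had -0.12 and 0.12. Cyp4f18 was counted in that list, but encodes a myeloid enzyme that inactivates leukotriene B4.

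**Figure D4:**
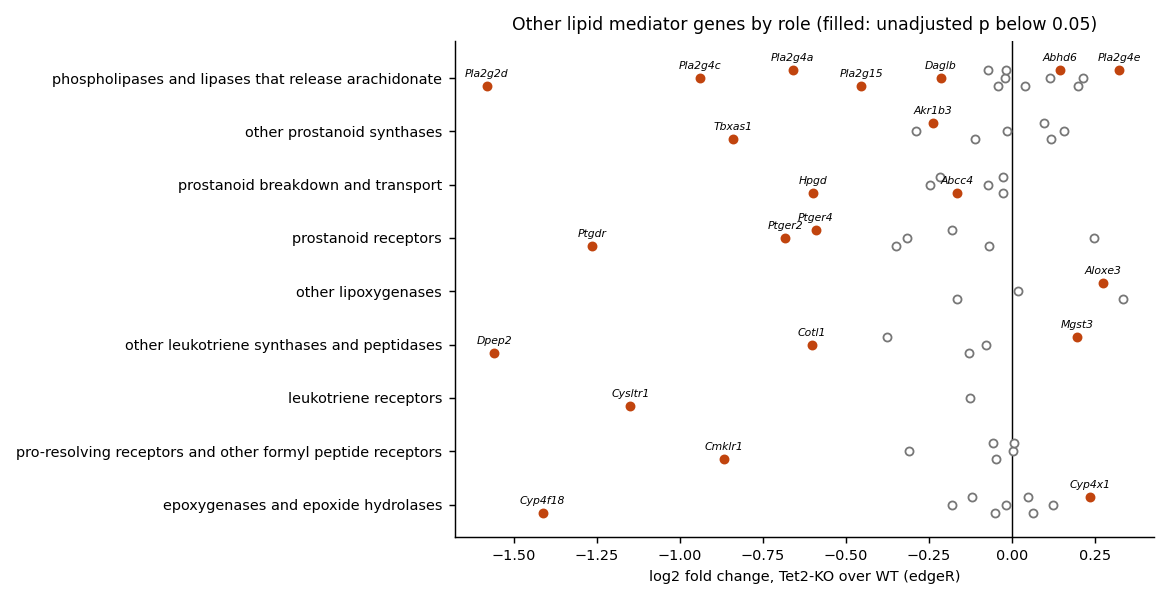
Log2 fold change of Tet2-KO over WT (horizontal axis, edgeR) for the 65 other tested genes of the pathway, 1 point per gene, in rows by role; filled points have an unadjusted p below 0.05. The 17 filled points on the left are spread over 8 of 9 roles and reach -1.58, and the 5 on the right do not pass 0.32.

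Markers of several cell types moved with these genes. Lower and higher mean here an unadjusted edgeR p below 0.05, which 12.2% of all genes tested reached downward and 10.8% upward. Of all listed markers, only the neutrophil markers S100a8 and S100a9 had an edgeR adjusted p below 0.05 (0.0364 each). Of the border-associated macrophage markers, 6 of 9 were lower, with summed levels of 51.6 to 91.2 CPM in WT and 15.5 to 63.2 CPM in Tet2-KO mice. The remaining markers of that list gave no call. Cd163 and Lyve1 had log2 fold changes above 0, at 0.04 and 0.22, and Cbr2 had -0.64. All 5 tested neutrophil markers were lower (sums of the 12 listed markers 72.0 to 159 CPM and 23.7 to 81.4 CPM), but most of that sum was Csf3r, which microglia also express, and 7 markers, among them Ly6g with 2 counts in all 12 libraries, were too low to test. Of 7 tested monocyte markers, 6 were lower (94.1 to 150 CPM and 40.3 to 106 CPM). Much of that sum was Vcan, the tested marker that gave no call, with means of 58.3 CPM in WT and 51.5 CPM in Tet2-KO mice. All 8 meningeal fibroblast markers were lower (844 to 1765 CPM and 202 to 1073 CPM), and 2 of 9 microglial markers were (512 to 914 CPM and 262 to 673 CPM). Hdc, the 1 mast cell marker tested, was lower as well, and the sums of the 8 listed were 4.86 to 12.6 CPM and 1.94 to 5.35 CPM. Endothelial markers were lower in 3 of 8 cases (273 to 330 CPM and 255 to 313 CPM), 1 of 7 astrocyte markers was higher (5410 to 5580 CPM and 5353 to 6057 CPM), and all 8 neuronal markers were higher (2930 to 4203 CPM and 3824 to 5112 CPM). No marker was at 0 counts in all 12 libraries.

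Several mice that stood out in the markers also stood out in many of the 10 genes, but not in all of them. WT replicate 2 had the highest sum of its group for neutrophil, monocyte, border macrophage, microglial and fibroblast markers, and the highest level of its group for 8 of the 10 genes. Tet2-KO replicates 4 and 5 had the highest sums of their group for the same 5 lists and overlapped the WT group in Alox5ap, Ptges and Hpgds. Tet2-KO replicate 1 had the lowest sums for those lists and the lowest Anxa1, Hpgds, Ptgs1 and Ltc4s of its group. Other extremes did not follow the markers. Tet2-KO replicate 3 had the highest Fpr1 and Fpr2 of its group but neither the highest nor the lowest sum for any of those lists. The lowest Alox5ap and Ptges of the Tet2-KO group were in replicate 6, and the lowest Alox5 and Fpr2 in replicate 2. The part that cell composition, or tissue taken at dissection, has in the lower levels was not tested. By staining of brain sections, the study counted similar numbers of macrophages and T cells in both groups. Without both WT replicate 2 and Tet2-KO replicate 5, chosen after seeing the data, 5 of the 8 genes were lower at an unadjusted p below 0.05. Of those, 3 then also had an edgeR adjusted p below 0.05. So did 1554 of all 20464 genes tested in that fit, and 4689 had an unadjusted p below 0.05 in either direction.

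**Figure D5:**
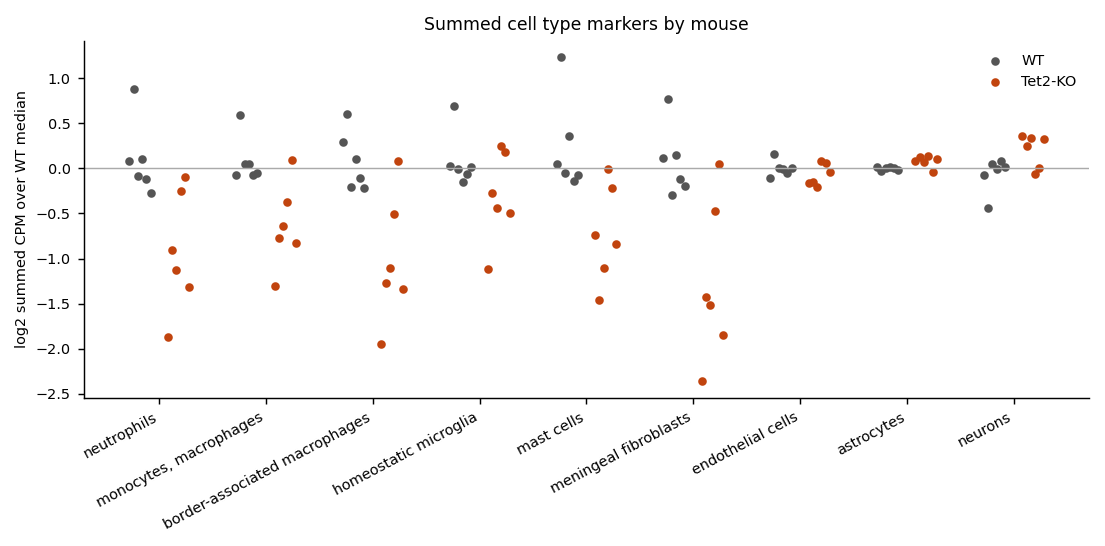
Summed CPM of each marker list in every mouse, as log2 of its ratio to the WT median (vertical axis), with 1 point per mouse and groups by colour. The Tet2-KO points lie mostly below 0 for leukocyte and fibroblast lists, 2 of the 6 microglial Tet2-KO points lie above 0, and 4 of the 6 neuronal Tet2-KO points lie well above 0.

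As a description of likeness, the deviations of log2 CPM from the group means were correlated over the 12 libraries with those of 19100 genes, and the 3 most like each gene were taken. The points share library depth and tissue makeup. Anxa1 was most like Oas2, Sp100 and Ddx58 (r = 0.97 each). Alox5ap was most like Ikzf3, Tspo and H2-Q5 (r = 0.96 to 0.97), and Ptges like Txndc5, Slc26a11 and Swap70 (r = 0.96 to 0.97). Hpgds was most like Serinc3, Kcnk6 and Lama2 (r = 0.99 each), Ptgs1 like Gpr34, Epb41l2 and Cst7 (r = 0.95 to 0.96), Alox5 like Gimap4, Manba and Col4a4 (r = 0.94 each), and Ltc4s like Ankrd13a, Cyp4f13 and Mfng (r = 0.95 to 0.97). For Ptgs2 the 3 were Lmo4, Mpv17l and Ccdc43 (r = 0.90 to 0.94). Because Ptgs2 is itself induced by neuronal activity, 10 activity genes were placed in its order of likeness, where Fosb came highest, at rank 1365 (r = 0.60), and Fos lowest, at rank 9007 (r = 0.03). None of the 10 activity genes differed between the groups at an unadjusted p below 0.05.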

How the data were processed

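Total RNA from 12 brains was depleted of ribosomal RNA and sequenced. The deposited table holds raw counts per Ensembl gene, which the authors made with Trimmomatic 0.36, STAR 2.5.2b and featureCounts of Subread 1.5.2 on mm10, per the submitters' processing notes and the study's methods, counting uniquely mapped reads in exons; the strand setting is not given in the sources used here. No normalization had been applied, and 0 columns belonged to no sample. Symbols, coordinates and exon lengths came from GENCODE M21 (49056 of 49315 genes had a symbol), and promoters from RefSeq. The members and gene lists were chosen with earlier results of these data known.

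Genes with enough counts by edgeR's default filter were scaled by TMM and tested, 6 against 6 mice, with edgeR's quasi-likelihood test (edgeR 4.0.16, robust, R 4.3.3, Benjamini-Hochberg adjustment over 20290 genes). DESeq2 1.42.0 and limma 3.58.1 (voom with quality weights) were alternatives, as were other scalings and filters and fits without each library. For low-count genes and ratios, all 924 assignments of the mice were enumerated in exact two-sided permutation tests of CPM and of log2(CPM + 0.1). The edgeR, DESeq2 and limma fits were tested on simulated data. Same-group libraries differed by more than sampling noise (chi-square per degree of freedom at least 1.91), so each was counted as 1 sample. The labels number the mice but do not say what a number marks. Named were all 10 genes, and of each role list the 2 most abundant and those with an unadjusted p below 0.05; ratio pairs and the printed promoters of Fpr1 and Fpr2 were chosen after seeing the data. P-values set a difference between the groups against the variation between these 12 mice. Intervals and floors cover counting error only where no replicate enters.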

Additional observations from a re-analysis of the deposited data

Results flagged for a closer look

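Of 20 groups of 6 values checked for a sample far from the others (the 10 genes in both groups), 4 held one by Dixon's criterion, where chance alone gives about 1 in 20. WT replicate 2 stood above its group for Hpgds (67.9 CPM, the others 38.7 to 45.3 CPM) and for Anxa1 (13.4 CPM, the others 9.14 to 10.6 CPM). Tet2-KO replicate 3 stood above its group for both receptor genes, with Fpr1 at 1.48 CPM (22 counts, the others 0.514 to 0.769 CPM) and Fpr2 at 0.605 CPM (9 counts, the others 0.0486 to 0.248 CPM). Without Tet2-KO replicate 3, the Fpr1 difference turned to -0.135 CPM (exact permutation test, p = 0.374).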

How the results depend on the processing

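Anxa1, Ptges and Alox5ap stayed lower at an unadjusted p below 0.05 under all alternatives and in all 12 fits that left out 1 library. Hpgds lost that mark in 5 of these fits and Alox5 gained it in 4. The count of genes with an edgeR adjusted p below 0.05 was 5 of 20290 (4678 at an unadjusted p below 0.05), 921 by DESeq2, 1863 by limma-voom, 44 without a filter on low counts, 0 with at least 10 counts in every library (4241 unadjusted), and 0 to 2257 without 1 library, the most without Tet2-KO replicate 5 and 1554 without that library and WT replicate 2. Of the 8 tested members, 0 passed an adjusted p in the main edgeR fit, 3 by DESeq2, 3 by limma-voom and 3 without those 2 libraries. Without 1 library, 0 to 3 passed (3 when that was Tet2-KO replicate 5). Members lower at an unadjusted p below 0.05 then numbered 3 (WT replicate 2 or Tet2-KO replicate 1, 2, 3 or 6 left out) to 5. Of the other pathway genes, 10 (WT replicate 2 left out) to 21 (Tet2-KO replicate 4 left out) were lower, and 11 on leaving out Tet2-KO replicate 1 or 6. The number higher was 8 by limma-voom and 1 (WT replicate 1 or Tet2-KO replicate 1 left out) to 7 without 1 library, and 2 on leaving out WT replicate 2 and 3 on leaving out Tet2-KO replicate 3 or 6. Ptgs1 turned to a log2 fold change of 0.0099 by limma-voom and ranged from -0.12 to 0.035 when 1 library was left out, being above 0 on leaving out WT replicate 2 (0.028) or Tet2-KO replicate 1 (0.035). Fpr1 differed by -0.00767 CPM on raw library totals and by -0.135 to 0.0947 CPM without 1 library, and Fpr2 by -0.591 to -0.439 CPM (exact permutation p = 0.00433 to 0.0152). Among the ratios, Ptgs2/Ptgs1 ranged from -0.30 to 0.035 (0.035 without Tet2-KO replicate 4) and Anxa1/Fpr2 from -0.19 to 0.27 without 1 library, and with a pseudocount of 0.5 CPM Fpr2/Fpr1 was -0.77 (exact permutation p = 0.00649) and Anxa1/Fpr2 moved from -0.01 to -0.60 (exact permutation p = 0.0909). Ltc4s/Alox5ap passed p below 0.05 with that pseudocount (0.46, exact p = 0.039) and without WT replicate 6 (0.63, exact p = 0.00866) or Tet2-KO replicate 1 (0.55, exact p = 0.0325), and Ptges/Ptgs2 without Tet2-KO replicate 4 (-0.90, exact p = 0.0216). The cause of these shifts was not tested. Mouse numbers showed no clear pairing, as the correlations of same-numbered mice ran from -0.17 to 0.23 and 1 of 6 mice was most like its own number. These correlations over all tested genes cannot exclude a pairing. A fit with the replicate block gave 0 genes with an adjusted p below 0.05 (4329 unadjusted). Fpr1 and Fpr2, at 1 to 22 counts a library, are limited by depth.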
